A study of Mus musculus with 9 samples.

Results

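Replication-dependent histone genes were examined in mouse MLL-AF9-OSKM leukemia cells whose reprogramming factors were switched on in vivo. A gene was taken as a member where a probe set of the Affymetrix Mouse Gene 2.0 ST array carried a single symbol of the linker histone H1 or core histone H2A, H2B, H3 or H4 families, written as Hist1h to Hist4h or as H1f, H2ac, H2bc, H3c or H4c with a number, and the brightest such probe set stood for the gene. This gave 29 genes of the 22180 genes with a single-symbol probe set: 8 of H1, 6 of H2A, 8 of H2B, 7 of H4 and 0 of H3. The 9 arrays held 41345 probe sets in all.

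The cells carried a human MLL-AF9 fusion marked with GFP together with Dox-responsive copies of Oct4, Sox2, Klf4 and c-Myc (OSKM). They grew in sublethally irradiated C57BL/6J recipients and were sorted as GFP+ cells from spleen. One group had received Dox in the drinking water for 48 h, another for 72 h, and the controls carried the same transgenes and received no Dox, with 3 arrays in each group. Every group therefore had the leukemia and the inducible cassette, and an effect of Dox itself cannot be told apart from an effect of the factors. The labels name biological replicates but no individual mice, and p-values therefore cover the variation among the arrays at hand. Defining genes of the leukemia and its myeloid lineage averaged 8.71 to 8.90 log2 signal over 12 genes on every array, against 4.63 to 4.68 for all probe sets. Single genes of this list did change. In limma at an adjusted p under 0.05, 2 rose and 1 fell at 48 h, where 1.12% and 0.481% of all probe sets did. The log2 fold changes were -1.365 for Kit, 1.02 for Csf1r and 0.52 for Ptprc. At 72 h Csf1r alone passed, at 1 with all arrays and 0.92 without Dox 72 h 3. One array, Dox 72 h 3, stood apart from the rest: it was the highest of the 9 arrays for 19.3% of all probe sets, where the others were so for 8.65% to 13.4%. Medians at 72 h, and the 72 h values of many but not all named genes, are given with and without it.

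Core histones form the nucleosome around which DNA is wrapped, and H1 binds the linker DNA between nucleosomes. Most of their genes lie in clusters, are transcribed in S phase when new DNA must be packaged, and give the only metazoan mRNAs that end in a conserved stem loop in place of a poly(A) tail. Stem-loop binding protein and the U7 small nuclear ribonucleoprotein process that end, and the mRNAs decay quickly when DNA synthesis stops. Because many of these genes encode the same protein from near-identical sequences, short probes cannot always tell the copies apart. The labelling kit used here primes whole RNA, so that transcripts without a poly(A) tail were measured.

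The RefSeq genes of mouse (GRCm38.p6) included all 29 members, 21 on chromosome 13, 5 on chromosome 3, 2 on chromosome 6 and 1 on chromosome 15. The rule also takes 6 genes that are not replication-dependent histones of dividing somatic cells: the testis genes H1f6, H2ac1 and H2bc1, the germ cell linker histones H1f7 and H1f8, and the replication-independent linker histone H1f10. The other 23 were counted as replication-dependent by their names, H2bc21 among them, and this was not tested for each gene. The annotation listed 14 members also in probe sets that carry several histone symbols, among them H4c17 and every other H4 member, so that their signal may include other copies. It listed 15 members in no such set, among them all 8 H1 genes. H1f0, a linker histone made outside S phase, had no single-symbol probe set.

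The stretches upstream of 3 members show promoter letters of 1 H4 gene and of H2B genes with and without the octamer. RefSeq start sites on GRCm38.p6 gave a window for 27 of the 29 members. The 120 bases that end just before the start are shown for H4c17, the member that rose after 72 h, for H2bc9, the H2B member with the smallest p in the test over the 3 groups, and for H2bc3, which carries the octamer. Capitals mark ATTTGCAT, CCAAT and TATAAA on either strand. H4c17 has a TATAAA match further upstream, within the 250 bases searched but outside the stretch shown. The stretches lie at chr13:21811626-21811745 on the plus strand, chr13:23543445-23543564 on the minus strand and chr13:23746614-23746733 on the plus strand.
H4c17: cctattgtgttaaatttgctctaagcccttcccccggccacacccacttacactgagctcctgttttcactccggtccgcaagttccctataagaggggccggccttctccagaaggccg
H2bc9: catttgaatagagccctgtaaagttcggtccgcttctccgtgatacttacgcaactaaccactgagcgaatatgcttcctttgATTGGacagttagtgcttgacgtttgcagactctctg
H2bc3: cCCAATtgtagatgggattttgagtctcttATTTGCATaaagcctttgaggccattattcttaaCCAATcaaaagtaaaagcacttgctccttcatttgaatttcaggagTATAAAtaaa

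ATTTGCAT is the octamer, a binding sequence of POU-domain factors, and is a known element of H2B promoters. Over the 250 bases before the start it occurred in 8 of 27 members (29.6%), against 1.61% of the 27025 genes with a window. These were 5 of 7 H2B genes and 3 of 6 H2A genes, with 0 of 8 H1 genes and 0 of 6 H4 genes. CCAAT, the motif of the factor NF-Y, occurred in 20 of 27 members (74.1%) and in 34.5% of all windows, and TATAAA occurred in 13 of 27 (48.1%) and in 13.0%. None of these motifs lies inside another, and a match describes the letters only. At 72 h against control the median of the log2 fold changes was 0.18 for the 8 members with the octamer, which ran from -0.10 to 0.34, and 0.19 for the 19 without it, which ran from -0.06 to 0.80. Leaving out Dox 72 h 3 gave medians of 0.13 with the octamer and 0.08 without it. At 48 h against control the medians were -0.06 with the octamer and -0.03 without it.

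**Figure D1:**
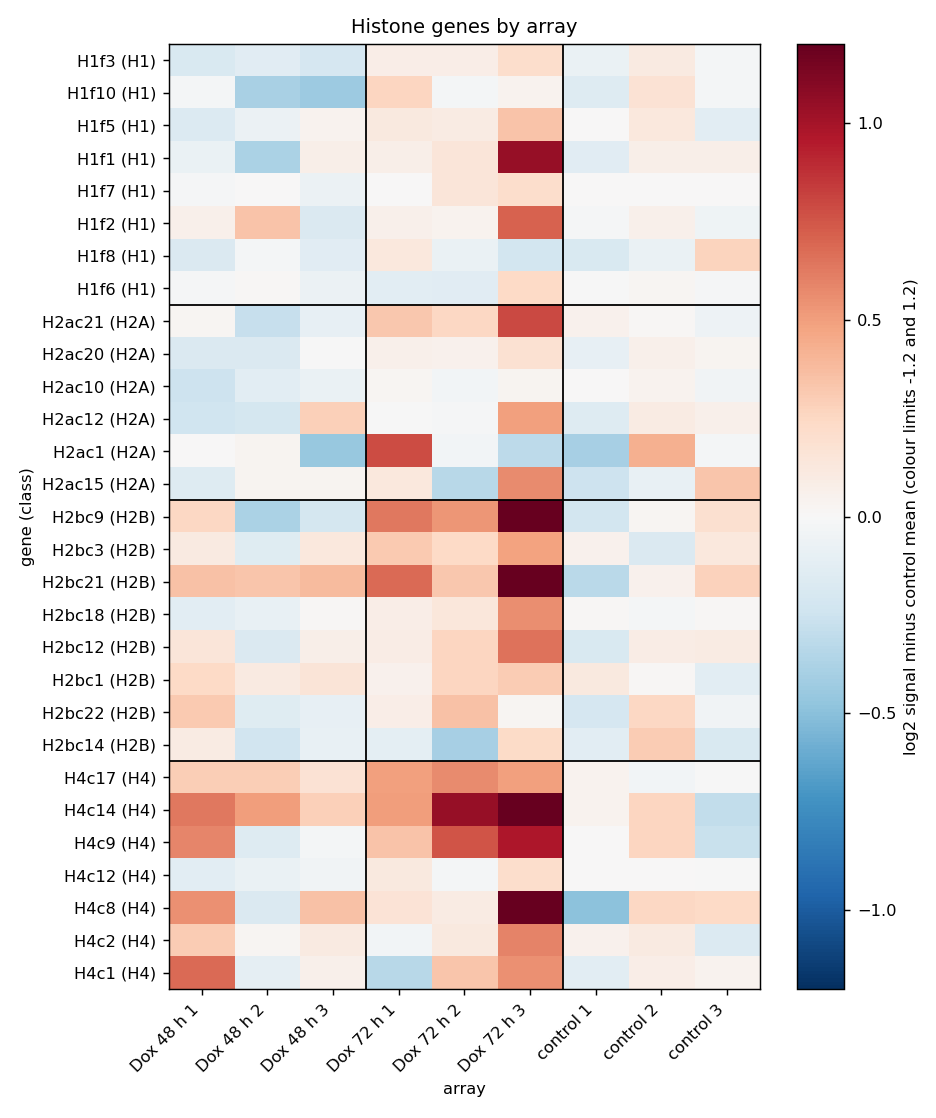
Log2 signal of each of the 29 histone genes (rows, by class) on the 9 arrays (columns), as the difference from the mean of the 3 controls. Most rows are darkest red in Dox 72 h 3, the highest array for 21 of 29 genes, whereas the H4c17 row is evenly red over all 3 Dox 72 h arrays.

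H4c17 was the only member past the threshold in any comparison between groups, and it is one of several genes for the core histone H4. Its log2 signal was 6.11, 6.11 and 5.99 after 48 h of Dox, 6.31, 6.38 and 6.31 after 72 h, and 5.85, 5.78 and 5.80 in controls. The 3 groups did not overlap, and arrays within a group differed by less than the gaps between groups. At 72 h the gene rose by a log2 fold change of 0.52 ± 0.0648 (SE) against control, or 1.43-fold, with an adjusted p of 0.00925 in limma's moderated test over all probe sets. At 48 h the log2 fold change of 0.26 ± 0.0648 did not pass (adjusted p = 0.134). Between 72 h and 48 h the difference was also 0.26 and did not pass (adjusted p = 0.181). In such bulk samples more cells that express a gene and more RNA per cell cannot be told apart.

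At 48 h the histone genes as a group were close to control. Counts of calls are given against all probe sets, of which 1.12% rose and 0.481% fell at 48 h. Of the 29 members 0 rose and 0 fell in limma. At an unadjusted p under 0.05 there was 1 higher (H4c17) and 0 lower, against 5.25% and 4.95% of all probe sets. For 3 members every Dox 48 h array lay above every control, and for 3 every one lay below, where 7.37% and 8% of all probe sets did so. The median log2 fold change of the members was -0.03 and 12 of 29 were above 0, beside a median of -0.02 (3 decimals: -0.015) over all probe sets.

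At 72 h most members lay above control by small amounts. Of the 29 members 1 rose and 0 fell, against 1.16% and 1.33% of all probe sets. At an unadjusted p under 0.05 there were 7 higher and 0 lower, where 7.2% and 9.57% of all probe sets were. The 3 Dox 72 h arrays lay above all controls for 8 members and below for 0, against 9.1% and 11.6% of all probe sets. The median log2 fold change was 0.19, with 26 of 29 members (89.7%) above 0, while the median over all probe sets was -0.01 with 48% above 0. Among the 23 members counted as replication-dependent 22 were above 0 with a median of 0.26. Among the 6 other members 4 were above 0 with a median of 0.11. These 2 medians were 0.11 and 0.10 without Dox 72 h 3, with 19 of 23 and 5 of 6 above 0.

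Between the 2 Dox times the members were mostly higher at 72 h than at 48 h, with 0 past the threshold. Of 29 members 0 rose and 0 fell in limma, where 0.00726% and 0.208% of all probe sets did. At an unadjusted p under 0.05 there were 12 higher and 0 lower, against 5.21% and 7.06%. The 72 h arrays lay above all 48 h arrays for 10 members and below for 0, against 7.13% and 8.15%. The median log2 fold change was 0.25 with 27 of 29 members above 0, beside a median of 0.00 (3 decimals: 0.002) over all probe sets. The same direction was seen for genes of DNA replication, with 26 of 33 above 0 (median 0.07), and for other lists given below. The comparisons of 72 h with control and with 48 h share the Dox 72 h arrays.

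The size of the 72 h shift depended on 1 array. Dox 72 h 3 was the highest of the 9 arrays for 21 of the 29 members, a larger share than the 19.3% of all probe sets given above. The mean level of the members was 5.97, 5.81 and 5.87 after 48 h, 6.04, 6.03 and 6.37 after 72 h, and 5.77, 5.95 and 5.88 in controls. Without that array the median log2 fold change at 72 h was 0.11 and 24 of 29 members were above 0. H4c17 still passed without it, with a log2 fold change of 0.53 ± 0.0716 and an adjusted p of 0.0256. Against 48 h the median without it was 0.16 with 21 of 29 above 0.

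**Figure D2:**
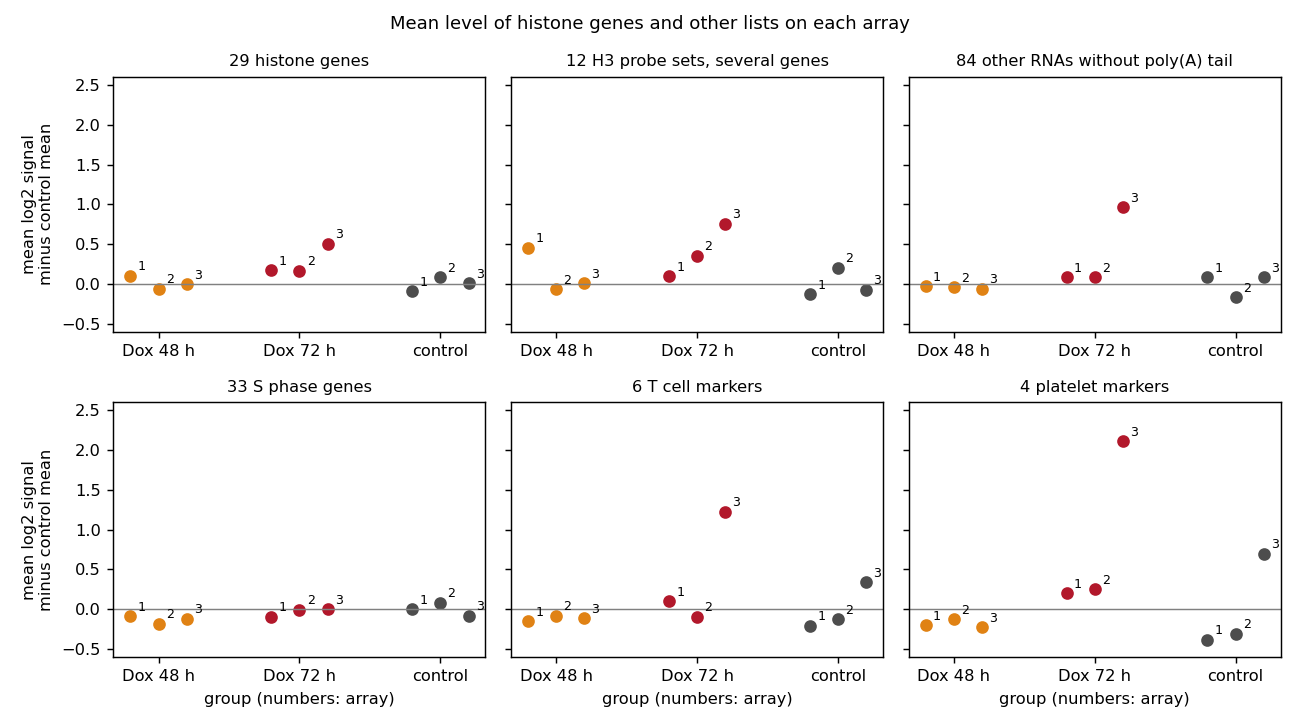
Mean log2 signal of 6 gene lists on each array, as the difference from the control mean (vertical axis), with a point for each array, its number beside it, and the groups along the horizontal axis. Dox 72 h 3 is the highest array in the histone, H3 probe set, poly(A)-minus RNA, T cell and platelet panels.

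The same array was the highest for markers of other spleen cells and for other RNAs without a poly(A) tail, and the part of either in the histone values was not tested. For T cells, 6 of 8 listed markers were measured, and their mean was 4.09 to 4.16 after 48 h, 4.15 to 5.47 after 72 h and 4.04 to 4.58 in controls. The 4 measured platelet markers of 6 averaged 4.83 to 4.93 after 48 h, 5.26 to 7.17 after 72 h and 4.67 to 5.76 in controls. For erythroid cells 7 of 15 were measured, without any hemoglobin gene, and averaged 4.40 to 4.51 after 48 h, 4.52 to 5.42 after 72 h and 4.35 to 4.98 in controls. Dox 72 h 3 thus held the top value of each of these 3 lists, and control 3 held the second one. These 2 arrays were also highest for the 10 red pulp macrophage markers, whose mean at 72 h differed from control by -0.14. Without Dox 72 h 3 it differed by -0.49, with 1 of 10 above 0 and Slc40a1 at -1.64 (adjusted p = 0.0207). For neutrophil and dendritic cell markers the mean differed at 72 h by 0.010 and -0.001, or by -0.114 and -0.042 without that array. The 7 measured B cell markers of 8 averaged 4.17 to 4.27, 4.23 to 5.14 and 4.09 to 4.37 at 48 h, at 72 h and in controls, and the 6 NK cell markers 3.40 to 3.42, 3.65 to 4.20 and 3.36 to 3.50. Of the 7 B cell markers Cd79b alone rose at 72 h, by 0.68 (adjusted p = 0.0329), where 1.16% of all probe sets rose. Without Dox 72 h 3 its value was 0.53 (adjusted p = 0.0256), and 4 of 7 B cell markers were above 0 with a median of 0.025.
The mean levels of the NK cell and plasma cell markers were also above control at 72 h on the other 2 arrays. Against control the mean of the NK cell list was higher by 0.49 with all arrays and by 0.34 (3 decimals: 0.335) without Dox 72 h 3. Klrk1, which encodes the activating receptor NKG2D, rose by 0.90 at 72 h (adjusted p = 0.0108), and by 0.88 without that array (adjusted p = 0.0395). The other NK cell markers were uneven without that array, and the list median was 0.17. There Gzma was at 0.70 (adjusted p = 0.229) and Prf1 at 0.25, while Ncr1, Eomes and Klrb1c were at 0.087, 0.078 and 0.003. The 6 plasma cell markers averaged 5.68 to 5.97 after 48 h, 5.89 to 6.42 after 72 h and 5.13 to 5.78 in controls, a mean difference of 0.65 at 72 h that was 0.49 without Dox 72 h 3. Sdc1, the syndecan gene that marks plasma cells, rose by 0.64 at 72 h (adjusted p = 0.0074), and by 0.60 without Dox 72 h 3 (adjusted p = 0.0242). The plasma cell list was mixed, with 4 of 6 markers above 0 at 72 h and 3 of 6 at 48 h. In limma 1 of the 6 rose at 48 h (adjusted p = 0.00907), where 1.12% of all probe sets did. At 72 h Irf4 was at 0.83 with all arrays and 0.74 without Dox 72 h 3 (adjusted p = 0.207). Xbp1 was at -0.07 and Prdm1 at -0.02, and Mzb1 was at 0.27 with all arrays and -0.17 without Dox 72 h 3. Jchain, the largest value, was at 2.265 with all arrays and at 1.745 without Dox 72 h 3 (adjusted p = 0.507). The part of these cells in the histone values was likewise not tested.
A set of 84 small nucleolar, Cajal body, spliceosomal and Y RNAs averaged 7.69 to 7.72 after 48 h, 7.83, 7.83 and 8.71 after 72 h and 7.58 to 7.83 in controls. Their median log2 fold change at 72 h was 0.43 with all arrays and 0.12 without Dox 72 h 3.

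The H4 genes had the highest class median at both times with all arrays, though not at 72 h without Dox 72 h 3. On the log2 fold change scale 6 of 7 H4 members were above 0 at 48 h (median 0.21) and 7 of 7 at 72 h (median 0.52). Without Dox 72 h 3 the 72 h median was 0.13 with 7 of 7 above 0, beside 0.19 for H2B. H4c14, an H4 gene of the chromosome 3 cluster, was dim with 3.60, 3.47 and 3.25 after 48 h, 3.47, 4.01 and 4.17 after 72 h, and 3.01, 3.22 and 2.67 in controls. Every Dox array of either time lay above every control, while the 2 Dox times overlapped. Its log2 fold change of 0.92 ± 0.206 at 72 h missed the threshold (adjusted p = 0.0645), and that of 0.47 at 48 h did as well (adjusted p = 0.496). The 72 h value was 0.77 without Dox 72 h 3.

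H4c9 read 7.40, 6.66 and 6.79 after 48 h, 7.16, 7.58 and 7.79 after 72 h, and 6.83, 7.08 and 6.55 in controls. The 72 h arrays lay just above the controls, and Dox 48 h 1 fell within the range of the 72 h arrays. Its log2 fold change at 72 h was 0.69 ± 0.238 (adjusted p = 0.192), and it was 0.55 without Dox 72 h 3. H4c12 was the brightest H4 member, with 11.99, 12.04 and 12.08 after 48 h, 12.24, 12.09 and 12.33 after 72 h, and 12.12, 12.12 and 12.11 in controls. It differed from control by 0.10 at 72 h and by -0.08 at 48 h, with adjusted p-values of 0.538 and 0.813, and by 0.05 at 72 h without Dox 72 h 3. H4c2, the dimmest H4 member at a mean of 2.73, had log2 fold changes of 0.15 at 48 h and 0.23 at 72 h, the 72 h value being 0.04 without Dox 72 h 3. H4c8 and H4c1 overlapped between groups, and H4c8 read 3.57, 3.50 and 4.74 after 72 h.

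**Figure D3:**
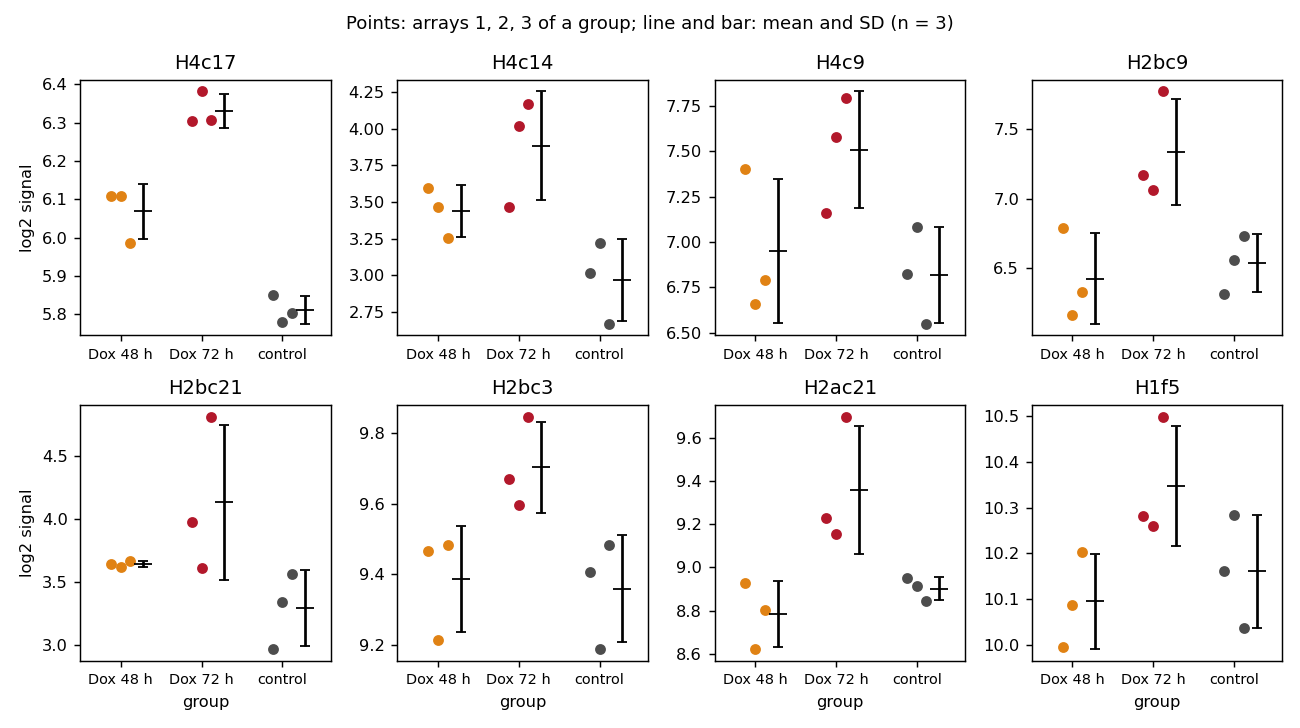
Log2 signal of 8 histone genes in the 3 groups, with a point for each array and a line and bar for the mean and SD (n = 3). Each panel has its own vertical axis, which does not start at 0. H4c17 separates the groups with the smallest spread, and every other gene shown has its highest point in the third Dox 72 h array.

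Among the H2B genes 5 of 8 were above 0 at 48 h with a median of 0.02, and 7 of 8 at 72 h with a median of 0.30 (3 decimals: 0.295). In this class 0 passed the threshold, and 3 were higher at 72 h at an unadjusted p under 0.05, against 7.2% of all probe sets. The 72 h median was 0.19 without Dox 72 h 3. H2bc9 read 6.79, 6.16 and 6.33 after 48 h, 7.17, 7.07 and 7.77 after 72 h, and 6.32, 6.56 and 6.73 in controls. The 72 h arrays lay above all the others, while 48 h and control arrays overlapped. The log2 fold change at 72 h was 0.80 ± 0.226 against control (adjusted p = 0.12), and 0.91 against 48 h (adjusted p = 0.181). Without Dox 72 h 3 the 72 h value was 0.58 (adjusted p = 0.255).

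H2bc21, from the chromosome 3 cluster, read 3.64, 3.62 and 3.67 after 48 h, 3.98, 3.62 and 4.81 after 72 h, and 2.97, 3.34 and 3.57 in controls. Every Dox array lay above every control, with Dox 72 h 3 far above the rest. Its log2 fold change was 0.84 ± 0.281 at 72 h (adjusted p = 0.18) and 0.50 without Dox 72 h 3. H2bc3 read 9.47, 9.21 and 9.48 after 48 h, 9.67, 9.60 and 9.85 after 72 h, and 9.41, 9.19 and 9.48 in controls. The 72 h arrays lay above the others by a small margin, at a log2 fold change of 0.34 ± 0.114 (adjusted p = 0.177). It is listed in no probe set with several symbols. H2bc18 read 8.15, 8.21 and 8.63 after 72 h and 8.09, 8.05 and 8.08 in controls, a log2 fold change of 0.26 (adjusted p = 0.342) that was 0.11 without Dox 72 h 3.

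H2bc1, the testis H2B gene, was the dimmest member of all, with a mean of 2.22 and log2 fold changes of 0.17 at 48 h and 0.21 at 72 h that did not pass. H2bc14 was the one H2B member below control at 72 h, by -0.10 with overlapping groups, and by -0.26 without Dox 72 h 3.

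The H2A genes were all below control at 48 h by small amounts and all above it at 72 h, with 0 past the threshold. Among them 1 was higher at 72 h at an unadjusted p under 0.05, against 7.2% of all probe sets. On the log2 fold change scale the 6 members had medians of -0.12 at 48 h, where they ran from -0.15 to -0.03, and of 0.13 at 72 h. Without Dox 72 h 3 the 72 h median was 0.03 and 3 of 6 were above 0. H2ac21 read 8.93, 8.62 and 8.80 after 48 h, 9.23, 9.15 and 9.70 after 72 h, and 8.95, 8.91 and 8.85 in controls. The 72 h arrays lay above all others. The log2 fold change at 72 h was 0.46 ± 0.146 (adjusted p = 0.164), and it was 0.29 without Dox 72 h 3. A second, dimmer probe set of the gene averaged 4.16, and its 72 h arrays also lay above all controls, at a log2 fold change of 0.22 (adjusted p = 0.324). It did not follow the first set on Dox 72 h 3, where it read 4.21 beside 4.28 and 4.36 on the other 72 h arrays.

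H2ac10 was the brightest member, with 11.94, 12.06 and 12.11 after 48 h, 12.21, 12.15 and 12.22 after 72 h, and 12.19, 12.23 and 12.14 in controls. All 48 h arrays lay below all controls, by -0.15 on the log2 scale (adjusted p = 0.514), and at 72 h the difference was 0.01. H2ac20 had 9.59, 9.59 and 9.75 after 48 h, 9.82, 9.81 and 9.94 after 72 h, and 9.66, 9.82 and 9.79 in controls, so that only the 2 Dox times did not overlap. The dimmest H2A member, H2ac12, had a mean of 2.50 and log2 fold changes of -0.05 at 48 h and 0.16 at 72 h, or -0.01 at 72 h without Dox 72 h 3. The testis gene H2ac1 ranged from 3.18 to 3.67 after 48 h, from 3.32 to 4.42 after 72 h and from 3.24 to 4.06 in controls, a spread within each group wider than any difference between them.

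Of the linker histone genes 0 passed the threshold. Between the Dox times 3 were higher at 72 h at an unadjusted p under 0.05, against 5.21% of all probe sets. On the log2 fold change scale 7 of 8 H1 genes were below 0 at 48 h (median -0.09) and 6 of 8 above 0 at 72 h (median 0.12), the median being 0.08 without Dox 72 h 3. H1f5, the brightest H1 gene, read 9.995, 10.09 and 10.20 after 48 h, 10.28, 10.26 and 10.50 after 72 h, and 10.16, 10.28 and 10.04 in controls. Its groups overlapped apart from 72 h against 48 h, and it had log2 fold changes of -0.07 and 0.19 at 48 h and 72 h (adjusted p = 0.91 and 0.395). The 72 h value was 0.11 without Dox 72 h 3. H1f3 read 4.91, 4.96 and 4.89 after 48 h, 5.17, 5.17 and 5.31 after 72 h, and 5.01, 5.20 and 5.07 in controls. All its 48 h arrays lay below all controls, by -0.17 (adjusted p = 0.493).

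H1f1 read 7.85 on Dox 72 h 3 and 6.87 and 6.95 on the other Dox 72 h arrays, against 6.66 to 6.87 in controls. Its log2 fold change at 72 h was 0.42 with all arrays and 0.11 without Dox 72 h 3. H1f2 had the same shape, with 8.10, 8.08 and 8.75 after 72 h and 7.99 to 8.10 in controls. The replication-independent H1f10 had a log2 fold change of -0.28 at 48 h and 0.09 at 72 h, with overlapping groups. H1f7 held an equal value of 3.21 (3 decimals: 3.205) on all 3 controls, and 13 of 29 members held an equal value on at least 2 arrays, as 48.5% of all probe sets did. The testis gene H1f6 stayed at 2.61 to 2.98 on all 9 arrays.

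**Figure D4:**
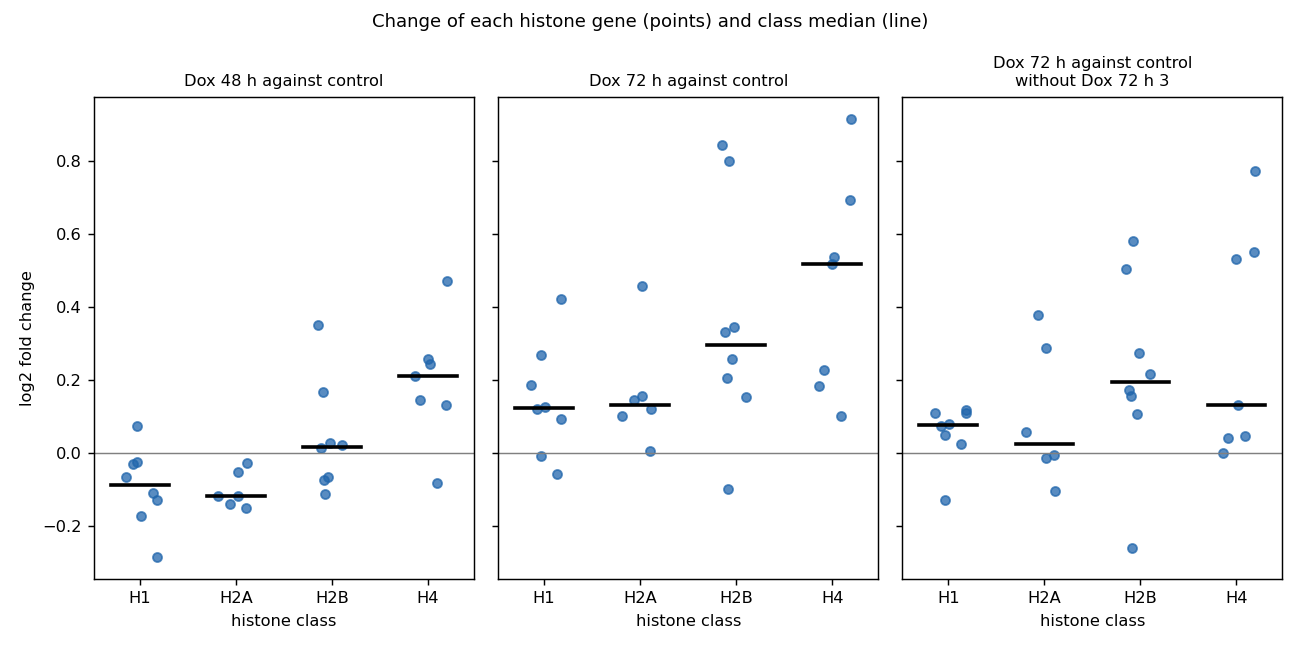
Log2 fold change of each histone gene (points) and the median of its class (lines) for Dox 48 h against control, Dox 72 h against control, and that 72 h comparison again without Dox 72 h 3. The H4 median is 0.52 in the middle panel and 0.13 in the right one.

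No H3 gene had a probe set of its own, and the class was measured only through probe sets that carry 4 or 8 H3 symbols each. The 12 H3 genes found in the annotation occurred in 12 such sets, and values of these sets belong to no single gene. Their mean level was 4.78, 4.26 and 4.33 after 48 h, 4.42, 4.68 and 5.08 after 72 h, and 4.19, 4.53 and 4.25 in controls. Dox 72 h 3 and Dox 48 h 1 were the highest arrays, and the groups overlapped. Of the 12 H3 sets 11 had a log2 fold change above 0 at 72 h, their median being 0.28, and 0 passed the threshold. There 2 were higher at an unadjusted p under 0.05, against 7.2% of all probe sets. Without Dox 72 h 3 the median was 0.16. At 48 h the median was 0.08 with 7 of 12 above 0. The 4 sets with 4 symbols had a 72 h median of 0.31 and the 8 sets with 8 symbols one of 0.22 (3 decimals: 0.215). These medians were 0.16 and 0.12 without Dox 72 h 3.

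Counting the H3 sets, 34 probe sets with distinct values carried several histone symbols, often the same ones, so that these sets are not separate genes. The median of their log2 fold changes was 0.08 at 48 h and 0.36 at 72 h, with 31 of 34 above 0 at 72 h, and 0.17 at 72 h without Dox 72 h 3. The 5 H4 sets had 72 h medians of 0.60 with all arrays and 0.44 without Dox 72 h 3. With all arrays 4 of the 5 were higher at an unadjusted p under 0.05, against 7.2% of all probe sets. A set listing 10 H2A genes read 9.51, 9.37 and 9.43 after 48 h, 10.01, 9.83 and 10.13 after 72 h, and 9.60, 9.52 and 9.56 in controls. It rose by a log2 fold change of 0.43 ± 0.0879 at 72 h (adjusted p = 0.0479), and it was the only one of the 34 past the threshold. Without Dox 72 h 3 its log2 fold change was 0.36 ± 0.0822, which did not pass (adjusted p = 0.106).

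Genes of DNA replication, with which these histones are transcribed, lay mostly below control at 48 h. Of the S phase list 33 of 36 genes were measured and 0 passed the threshold in any of the 3 comparisons. Their log2 fold changes were below 0 for 32 of 33 genes at 48 h with a median of -0.13, where 54.6% of all probe sets were below 0. There 5 of them were lower at an unadjusted p under 0.05, against 4.95% of all probe sets. At 72 h 20 of 33 (60.6%) lay below 0 with a median of -0.04, beside 52.0% of all probe sets. This median was also -0.04 without Dox 72 h 3. In the S phase list 2 were higher and 3 lower at 72 h at an unadjusted p under 0.05, against 7.2% and 9.57% of all probe sets. Cdc25a, a phosphatase that activates cyclin-dependent kinases, was at -0.34 at both 48 h and 72 h (adjusted p = 0.107 and 0.0763). Rrm2, a subunit of ribonucleotide reductase, was at -0.28 at 48 h and -0.32 at 72 h, while Fen1, a flap endonuclease, was at -0.01 and 0.28 and the licensing factor Cdt1 at -0.11 and 0.19. For 19 of 20 mitosis genes measured the medians were -0.09 at 48 h and -0.09 at 72 h (-0.11 at 72 h without Dox 72 h 3), also with 0 past the threshold. Of these, 3 were lower at 48 h and 8 at 72 h at an unadjusted p under 0.05, against 4.95% and 9.57% of all probe sets.

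Factors that make and end histone mRNAs had 0 of 15 genes past the threshold in each comparison. Their medians were -0.04 at 48 h and -0.01 at 72 h (-0.03 at 72 h without Dox 72 h 3). At 72 h 1 was higher and 2 were lower at an unadjusted p under 0.05, against 7.2% and 9.57% of all probe sets. Npat, the coactivator of histone gene transcription at the histone locus body, was at -0.24 at 48 h and -0.35 at 72 h (adjusted p = 0.324 and 0.0746). Lsm10, a protein of the U7 particle, was at 0.43 and 0.62 (adjusted p = 0.3 and 0.0693), the 72 h value being 0.49 without Dox 72 h 3. Cpsf3, the nuclease that cuts the histone mRNA end, was at -0.05 and -0.29. The cap-binding subunit Ncbp2 was at -0.04 and 0.31.

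Histone chaperones had 18 of 20 genes measured and 0 past the threshold. Their medians were -0.09 at 48 h and -0.04 at 72 h (-0.03 at 72 h without Dox 72 h 3). With an unadjusted p under 0.05, 4 were lower at 48 h, against 4.95% of all probe sets. At 72 h 1 was higher and 1 lower, against 7.2% and 9.57%. Atrx and Daxx, partners in the deposition of the H3.3 variant, were at -0.49 and 0.53 at 72 h (adjusted p = 0.0542 and 0.106). Chaf1a, the large subunit of the replication-coupled assembly factor CAF-1, was at -0.26 at 48 h and 0.03 at 72 h, and Dnajc9, a co-chaperone of H3 and H4, at -0.13 and 0.18 (0.09 at 72 h without Dox 72 h 3). Replication-independent histone genes numbered 11 measured of 15, among them H1f10 and H1f8, which are also members, with 0 past the threshold. Their medians were -0.11 at 48 h and -0.05 at 72 h (0.03 at 72 h without Dox 72 h 3). Of the 11, 3 were higher at 72 h at an unadjusted p under 0.05, against 7.2% of all probe sets. H2az2, which encodes a variant of H2A, was at 0.41 at 72 h (adjusted p = 0.113), and Macroh2a1 and Macroh2a2, which encode the macroH2A variants, were at 0.29 and 0.30 (3 decimals: 0.296).

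Among 12 cell cycle inhibitors 3 rose at 48 h, where 1.12% of all probe sets rose, and 0 passed at 72 h. Cdkn1b, which encodes the kinase inhibitor p27, rose by 0.57 at 48 h (adjusted p = 0.00482) and stood at 0.29 at 72 h (adjusted p = 0.06). Rb1, the retinoblastoma protein gene, rose by 0.39 (3 decimals: 0.385) at 48 h, and the antiproliferative gene Btg2 by 1.58, with adjusted p-values of 0.0275 and 0.0462. At 72 h 2 of the 12 were higher at an unadjusted p under 0.05, against 7.2% of all probe sets. Between the Dox times 26 of 33 S phase genes were above 0 at 72 h (median 0.07), beside 50.4% of all probe sets. So were 14 of 18 chaperones (median 0.05) and 10 of 11 replication-independent histones (median 0.06). Without Dox 72 h 3 these medians were 0.075, 0.03 and 0.04. In the mitosis list 9 of 19 were above 0, among the histone mRNA factors 6 of 15 and among the inhibitors 2 of 12. No test compared the histone genes with these lists.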

How the data were processed

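RNA of FACS-sorted cells was hybridised to 9 arrays, 3 per group. The deposited values are log2 expression per probe set, which the authors normalized between arrays. The study's methods name RMA in the oligo package, whereas MAS5 (version not given) stands in the submitters' processing notes, so the summary method is not settled. The values resembled RMA output, with array medians of 3.71 to 3.87. The genome build and annotation used upstream are not given in the sources used here. Scanner files and detection calls were not used here.

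Of 41345 probe sets, 23521 carried 1 gene symbol in the platform annotation, 1820 several and 16004 were not listed. Named genes come from the first kind only. Groups were compared with limma 3.58.1 in R 4.3.3 on the values as deposited, with 1 mean per group over all 9 arrays, two-sided moderated tests and Benjamini-Hochberg adjustment over all probe sets at a threshold of 0.05, with 0 probe sets filtered. Values after ± are standard errors of the model. The fitting code was tested on simulated data. In each class the 4 members with the smallest p over the 3 groups, the brightest and dimmest members, the testis genes and every member past the threshold were named, together with up to 4 genes per list. H1f1, H1f2, H1f7, H4c1, H4c8 and H2bc14 were named after their values were seen. Members and lists were chosen with earlier results of these data known. Alternatives were quantile normalization, median centring, leaving out probe sets with a mean under 4, fitting the compared groups only, an intensity trend with robust variances, the replicate block, the mean of a gene's probe sets, other member sets, and leaving out each array. Promoter windows came from the RefSeq table (GRCm38.p6). The number of arrays limits the precision.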

Additional observations from a re-analysis of the deposited data

How the results depend on the processing

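H4c17 at 72 h against control passed the threshold in 16 of 16 alternatives (adjusted p from 0.00552 to 0.0478) and at 48 h in 0 of 16 (0.0772 to 0.336). The count of members higher at 72 h against control ran from 1 to 2 when each array was left out, and it was 2 without Dox 72 h 1, where H4c14 passed (log2 fold change 1.12, adjusted p = 0.0345; 0.0345 to 0.169 over 15 alternatives). It was also 2 when probe sets with several histone symbols were added, since the H2A set with 10 symbols joined H4c17. Other counts of members past the threshold were 0 in every alternative. The median log2 fold change of members ran from 0.11 (without Dox 72 h 3) to 0.28 at 72 h against control, and was 0.01 in place of -0.03 at 48 h against control after median centring or with several-symbol sets added.

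The labels give the groups the same replicate numbers, but the deviations of same-numbered arrays had weak correlations of either sign (-0.302 to 0.209). The numbers were therefore not taken as pairs. With the replicate block 1 member was higher at 72 h against control, 0 passed elsewhere, and the medians stayed at -0.029, 0.187 and 0.252.

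Values of uncalled members near 0 changed sign. Quantile normalization gave 0.016 for H1f6 and -0.015 for H2ac10 at 72 h against control. Median centring gave 0.013 for H1f6 at 48 h and 0.083 at 72 h against control. Leaving out each array gave ranges at 48 h against control of -0.043 to 0.002 for H1f6, -0.339 to 0.074 for H2ac1, -0.224 to 0.040 for H2ac12, -0.057 to 0.115 for H2bc3, -0.293 to 0.021 for H2bc9 and -0.093 to 0.278 for H4c9. At 72 h against control the ranges were -0.129 to 0.056 for H1f6, -0.173 to 0.377 for H2ac1, -0.015 to 0.028 for H2ac10 and -0.012 to 0.244 for H2ac12. At 72 h against 48 h they were -0.105 to 0.079 for H1f6, -0.034 to 0.516 for H2ac1, -0.011 to 0.114 for H2bc1 and -0.103 to 0.212 for H4c2. Of the 29 members, 12 had a mean under 4, where signal over background is small, and for these the test without dim probe sets gave no value. The cause of these changes was not tested.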
